A study of Mus musculus with 4 samples.

Results

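Autophagy genes were examined by RNA-seq in B220+ splenocytes that had not been stimulated, taken from MIZ-1WT and MIZ-1△POZ mice. The members were taken from a written list of 39 genes, matched by symbol to the Ensembl gene IDs of the count table, and all 39 were found among its 41214 genes. They were assigned to the step at which their products act, with 5 genes of initiation, 12 of nucleation, 15 of conjugation, 4 cargo receptors, 2 genes of fusion and 1 transcription factor. MIZ-1△POZ mice carried a floxed POZ domain of Miz-1 (*Zbtb17*) and the MB1-Cre transgene, whose promoter is that of the B cell receptor gene *Cd79a*, so that the domain was deleted in B cells and a shortened MIZ-1 protein remained. The MIZ-1WT group was labelled wild type, and whether these animals carried the Cre or the floxed allele is not given in the sources used here. Young animals on a C57BL/6 background were used in both groups, and 2 libraries per genotype were made from rRNA-depleted RNA of spleen cells selected for B220, a marker of most B cells that is also found on some other cells. The study describes the 2 libraries per genotype as biological replicates. Nothing in the labels ties a library to a single animal, so the p-values measure only the spread between these libraries.

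Autophagy delivers parts of the cytoplasm to the lysosome inside a double membrane vesicle, the autophagosome. A kinase complex starts the process, a lipid kinase complex and lipid transfer proteins build the membrane, and a pair of ubiquitin-like conjugation systems attaches proteins of the LC3 and GABARAP family to it. Receptors bind the cargo to these proteins, and SNARE proteins and tethers bring about fusion with the lysosome, while in B cells autophagy is known for its part in the survival of memory B cells and plasma cells.

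Each library held between 43026814 and 46387209 counts on genes. *Zbtb17*, the targeted gene, went from 2087 and 1946 counts in MIZ-1WT to 1774 and 1669 in MIZ-1△POZ, and a gene count cannot show whether the exons of the POZ domain were absent. The 10 pan-B cell markers were abundant in both genotypes, summing to 10781 and 11031 CPM (counts scaled to a common library total) in MIZ-1WT and 8926 and 9406 CPM in MIZ-1△POZ, and 7 of them were lower in MIZ-1△POZ. All 16 macrophage markers were higher in MIZ-1△POZ, none was at 0 in any library, and their sum was 982 and 1307 CPM in MIZ-1WT against 5841 and 3654 CPM in MIZ-1△POZ. Of the plasma cell markers 4 of 5 were higher, from a sum of 360 and 681 CPM to 2027 and 1872 CPM, of the marginal zone markers 5 of 6 were higher, and of the follicular markers 3 of 5 were lower. Of the conventional dendritic cell markers 3 of 6 were higher and 1 was lower, of 9 T cell markers 1 was higher and 1 lower, and 1 marker each was higher among those of plasmacytoid dendritic cells, neutrophils, NK cells, erythroid cells and megakaryocytes. The part of these cell types in the values that follow was not tested, and in bulk RNA fewer cells of a type and less RNA per cell cannot be told apart. *Xist* had 49 and 60 counts in MIZ-1WT and 38145 and 40838 in MIZ-1△POZ, while *Ddx3y* of the Y chromosome fell from 363 and 354 CPM to 14.3 and 14.2 CPM, so the sex of the animals and their genotype cannot be told apart.

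Autophagy genes moved in both directions, and more members were lower than higher in MIZ-1△POZ. Of the 39 members, all of which passed the filter on low counts, 22 passed the threshold of an adjusted p of 0.05 (quasi-likelihood test of edgeR, Benjamini-Hochberg over all genes tested), which is 56.4%, where 40.0% of the 14554 genes tested did. Among them 7 were higher, beside 21.1% of all genes, and 15 were lower, beside 18.9% of all genes. The median log2 fold change of MIZ-1△POZ over MIZ-1WT was -0.13 over the members and -0.006 over all genes tested, and the members ranged from -0.78 for *Atg16l2* to 1.91 for *Wipi1*. Most changes were small. The study names a fold limit of 0.6 and a p-value of 0.05, which its methods print as greater than 0.05. Here an unadjusted p under 0.05 by edgeR was required. Only *Wipi1*, *Gabarapl1*, *Optn* and *Atg16l2* met it together with an absolute log2 fold change no smaller than 0.6. These 4 of 39 members stood beside 20.3% of all genes, with 15.0% of all genes past the limits in the higher direction and 5.30% in the lower. Both MIZ-1△POZ libraries lay above both MIZ-1WT libraries for 11 members, beside 37.2% of all genes, and below them for 23, beside 37.6%, so that the genotypes overlapped for 5 members and were apart for the others, beside 74.8% of all genes.

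**Figure D1:**
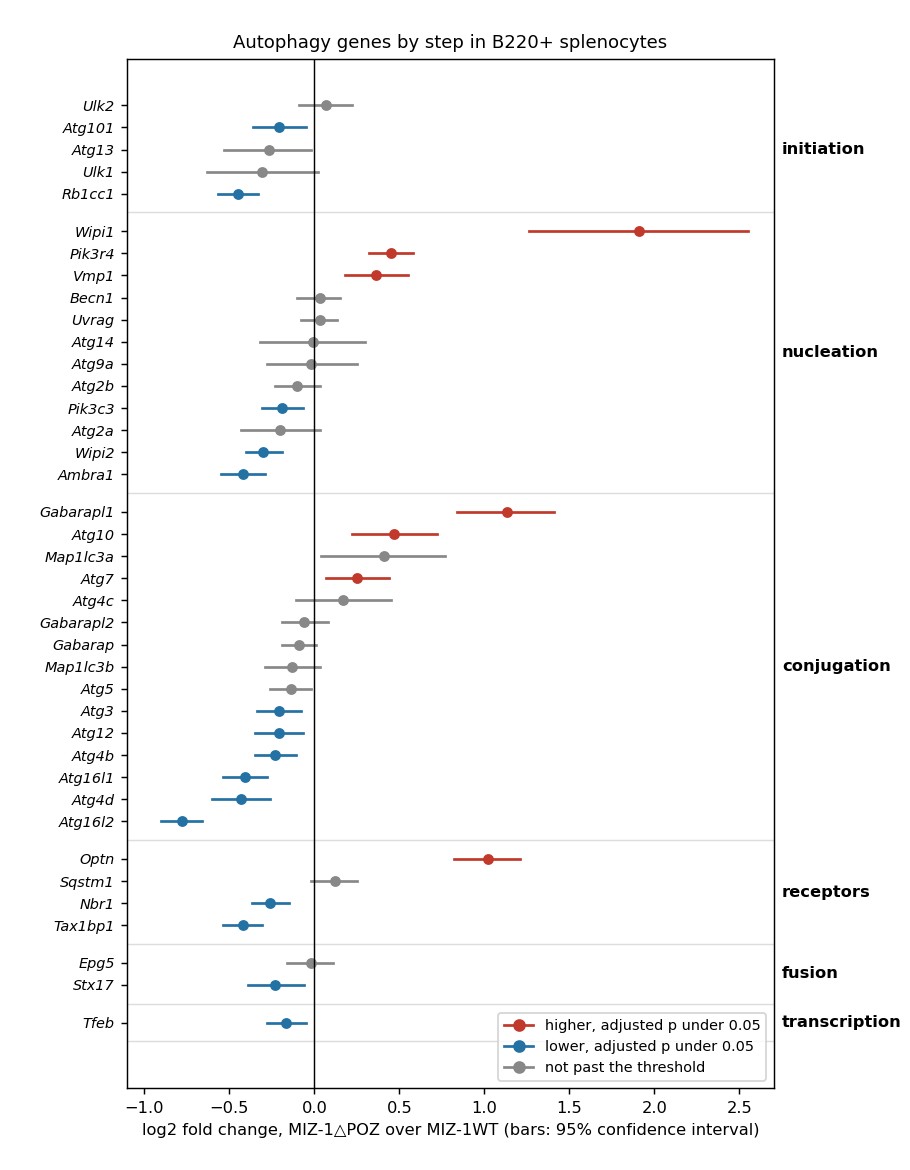
Log2 fold change of MIZ-1△POZ over MIZ-1WT with its 95% confidence interval for the 39 members, grouped by step and coloured by call. The 7 members that were higher lie in nucleation, conjugation and the receptors, and *Wipi1* at 1.91 and *Atg16l2* at -0.78 are the ends of the range.

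The 4 members past these limits fall at different steps. On GRCm38, by GENCODE, *Wipi1* (ENSMUSG00000041895) lies at chr11:109573331-109611967, *Gabarapl1* (ENSMUSG00000030161) at chr6:129533160-129542346, *Optn* (ENSMUSG00000026672) at chr2:5020642-5064051 and *Atg16l2* (ENSMUSG00000047767) at chr7:101263034-101302251, and all 4 are annotated as protein coding. *Wipi1* encodes a phosphoinositide-binding protein of the nucleation step, *Gabarapl1* an LC3-like protein that is conjugated to lipid, *Optn* the cargo receptor optineurin, and *Atg16l2* a paralogue of the conjugation factor *Atg16l1*. For 3 of these the region around the RefSeq transcription start is shown, from 250 bases before to 50 after it, and beside them the windows of *Atg3* and *Atg7*, which moved in opposite directions and both hold the E-box CACGTG. The E-box is the core of the site bound by TFEB and by other bHLH factors. It reads the same on both strands and is printed in capitals, and all sequences run 5′ to 3′ on the strand of the gene in RefSeq's GRCm38.p6 assembly. *Gabarapl1* (chr6:129532942-129533241, plus strand), *Optn* (chr2:5064068-5064367, minus strand) and *Atg16l2* (chr7:101302039-101302338, minus strand) have no match, *Atg3* (chr16:45158579-45158878, plus strand) has 2 and *Atg7* (chr6:114670846-114671145, plus strand) has 1.
Gabarapl1: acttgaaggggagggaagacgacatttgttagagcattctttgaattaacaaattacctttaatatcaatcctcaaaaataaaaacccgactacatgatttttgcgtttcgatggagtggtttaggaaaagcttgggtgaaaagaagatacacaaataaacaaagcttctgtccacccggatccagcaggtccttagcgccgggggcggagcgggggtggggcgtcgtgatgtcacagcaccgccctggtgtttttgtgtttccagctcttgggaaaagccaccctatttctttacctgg
Optn: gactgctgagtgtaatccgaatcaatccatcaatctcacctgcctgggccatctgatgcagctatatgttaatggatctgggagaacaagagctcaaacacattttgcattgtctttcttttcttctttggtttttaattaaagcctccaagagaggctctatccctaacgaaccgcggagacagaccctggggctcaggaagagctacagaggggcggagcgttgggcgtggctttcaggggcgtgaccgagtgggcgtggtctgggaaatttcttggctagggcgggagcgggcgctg
Atg16l2: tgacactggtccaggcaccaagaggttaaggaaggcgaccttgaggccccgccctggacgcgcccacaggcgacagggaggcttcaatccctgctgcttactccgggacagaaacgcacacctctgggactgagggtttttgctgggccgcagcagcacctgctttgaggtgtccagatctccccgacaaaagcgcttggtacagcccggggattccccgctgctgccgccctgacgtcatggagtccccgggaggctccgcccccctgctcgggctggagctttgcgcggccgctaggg
Atg3: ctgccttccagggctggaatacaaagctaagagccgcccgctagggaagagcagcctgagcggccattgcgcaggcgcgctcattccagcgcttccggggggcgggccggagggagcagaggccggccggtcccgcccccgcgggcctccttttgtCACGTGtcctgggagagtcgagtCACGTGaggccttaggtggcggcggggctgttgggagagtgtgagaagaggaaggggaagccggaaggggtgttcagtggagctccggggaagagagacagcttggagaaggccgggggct
Atg7: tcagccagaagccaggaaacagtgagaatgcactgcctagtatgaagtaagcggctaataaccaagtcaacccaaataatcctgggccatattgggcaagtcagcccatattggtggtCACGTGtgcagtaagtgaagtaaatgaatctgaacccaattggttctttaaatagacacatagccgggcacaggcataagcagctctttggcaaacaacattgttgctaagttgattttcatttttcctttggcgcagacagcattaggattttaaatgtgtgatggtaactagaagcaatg

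The RefSeq start of *Atg7* lies 27999 bases downstream of the outermost GENCODE start of the gene, so its window is not at the gene's outer end, whereas those of *Gabarapl1*, *Atg3* and *Atg16l2* lie 32, 44 and 163 bases downstream of it and that of *Optn* 66 bases upstream. RefSeq windows were found for 32 of the 39 members, and not for *Rb1cc1*, *Becn1*, *Pik3c3*, *Atg12*, *Atg16l1*, *Map1lc3a* and *Epg5*. The E-box was present in 4 of the 32 windows, which is 12.5%, and in 8.09% of the windows of all 27025 genes. In *Atg14* it starts 1 base before the transcription start, in *Atg5* 14, in *Atg7* 132, and in *Atg3* 94 and 71. The longer CLEAR motif, here an E-box with GT before it and AC after it on either strand, was in none of the 32 windows and in 0.37% of all windows. The 4 genes with an E-box did not share a direction, with log2 fold changes of -0.01 for *Atg14*, -0.21 for *Atg3*, -0.14 for *Atg5* and 0.25 for *Atg7*. The windows of the members had a median GC content of 61.2% against 52.8% over all genes, and the median was 52.7% over the 7 members that were higher, 61.7% over 11 that were lower and 60.8% over 14 that did not pass the threshold.

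In the initiation step no member was higher, 2 were lower and 3 did not pass the threshold. The called share was 40%, beside 40.0% of all genes tested, and the median log2 fold change was -0.27. The ULK kinase complex consists of a kinase, ULK1 or ULK2, with ATG13, FIP200 and ATG101. *Rb1cc1*, which encodes the scaffold FIP200, fell from 209 and 219 CPM in MIZ-1WT to 159 and 153 CPM in MIZ-1△POZ (log2 fold change -0.45, SE 0.049, 95% confidence interval -0.57 to -0.33, adjusted p = 0.0023 by edgeR). The genotypes did not overlap, and the libraries of a genotype differed by at most 0.07 on the log2 scale. *Atg101*, which stabilises ATG13, was at 31.5 and 32.2 CPM in MIZ-1WT and 27.9 and 27.4 CPM in MIZ-1△POZ (log2 fold change -0.21, SE 0.061, adjusted p = 0.0427 by edgeR). It had the highest length-scaled level of the step, at 18.6 RPKM (CPM per kilobase of exon) over all libraries, and its call was lost when any 1 of the 4 libraries was left out, with adjusted p up to 0.192.

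The remaining members of the ULK complex did not pass the threshold with all 4 libraries. The intervals of *Ulk1* and *Atg13* were wider than those of *Rb1cc1* and *Atg101*. *Atg13*, at 15.4 and 14.7 CPM against 11.6 and 13.4 CPM, had a log2 fold change of -0.27 (SE 0.10, adjusted p = 0.0827 by edgeR), and passed the threshold when MIZ-1△POZ replicate 2 was left out (adjusted p = 0.0294). The kinase gene *Ulk1* was at 10.5 and 9.21 CPM in MIZ-1WT and 7.37 and 8.56 CPM in MIZ-1△POZ (log2 fold change -0.31, 95% confidence interval -0.63 to 0.02). The kinase gene *Ulk2* overlapped between the genotypes, with 90.3 and 98.5 CPM against 102 and 95.4 CPM. Scaled by exon length, *Ulk2* made up from 90.3% to 93.8% of the summed *Ulk1* and *Ulk2* level in the 4 libraries.

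Nucleation held members that changed in either direction, with 3 higher, 3 lower and 6 of its 12 not past the threshold. Its called share was 50%, beside 40.0% of all genes tested, and its median log2 fold change was -0.01. The class III PI3-kinase complex makes the lipid that recruits later factors, and its catalytic subunit and its regulatory subunit differed in sign. *Pik3c3*, the catalytic subunit VPS34, fell from 101 and 106 CPM to 91.3 and 91.1 CPM (log2 fold change -0.19, SE 0.048, adjusted p = 0.0278 by edgeR). *Pik3r4*, the regulatory subunit VPS15, rose from 174 and 173 CPM to 228 and 245 CPM (log2 fold change 0.45, SE 0.051, 95% confidence interval 0.32 to 0.58, adjusted p = 0.00258 by edgeR). The difference between the subunits was not tested as such. The interval of *Pik3r4* lay above 0, and the genotypes did not overlap for either gene, as for 74.8% of all genes tested. Without MIZ-1WT replicate 1 or 2 the call of *Pik3c3* was lost (adjusted p up to 0.191), while that of *Pik3r4* was kept without any 1 library (adjusted p up to 0.0316).

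*Ambra1*, a regulator of the complex that binds beclin 1, fell from 73.8 and 72.7 CPM to 53.6 and 55.8 CPM (log2 fold change -0.42, SE 0.052, adjusted p = 0.00309 by edgeR). *Becn1*, which encodes beclin 1 itself and had the highest length-scaled level of the step at 25.5 RPKM, was at 175 and 182 CPM in MIZ-1WT and 187 and 176 CPM in MIZ-1△POZ (log2 fold change 0.03, SE 0.052, adjusted p = 0.71). The subunits that steer the complex to autophagosomes or to endosomes, *Atg14* and *Uvrag*, had log2 fold changes of -0.01 (SE 0.13) and 0.03 (SE 0.042). Thus *Ambra1* was lower in both MIZ-1△POZ libraries, while *Becn1* and *Atg14* overlapped between the genotypes and *Uvrag* differed by less than its SE.

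WIPI proteins bind the lipid made by the PI3-kinase complex. *Wipi1* had a low level in MIZ-1WT, with 16 and 20 counts, and had 75 and 70 counts in MIZ-1△POZ, that is 0.367 and 0.476 CPM against 1.58 and 1.59 CPM (log2 fold change 1.91, SE 0.26, 95% confidence interval 1.26 to 2.55, adjusted p = 0.00426 by edgeR). *Wipi2*, which recruits the ATG16L1 complex, went the other way, from 170 and 172 CPM to 138 and 141 CPM (log2 fold change -0.30, SE 0.043, adjusted p = 0.00487 by edgeR). The rise of *Wipi1* therefore concerned a small share of the family, since *Wipi2* made up 99.5% and 99.3% of the length-scaled sum of both genes in MIZ-1WT and 97.4% in each MIZ-1△POZ library. Their sum went from 16.3 and 16.4 RPKM to 13.5 and 13.7 RPKM. The call of *Wipi2* was lost without MIZ-1WT replicate 1 (adjusted p = 0.0522).

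Among the membrane proteins of the step, *Vmp1*, a lipid scramblase of the endoplasmic reticulum, rose from 74.5 and 75.5 CPM to 103 and 89.9 CPM (log2 fold change 0.36, SE 0.074, adjusted p = 0.0137 by edgeR). MIZ-1△POZ replicate 1 exceeded replicate 2 by 0.20 on the log2 scale for *Vmp1*, and the median of the macrophage markers was higher in the same library by 0.67. The part of macrophage RNA in the value was not tested, and without MIZ-1WT replicate 1 or 2 the call was lost (adjusted p up to 0.0919). The lipid transfer genes *Atg2a* and *Atg2b* had log2 fold changes of -0.20 (SE 0.091) and -0.10 (SE 0.052) and did not pass the threshold, except that *Atg2a* passed it without MIZ-1△POZ replicate 2 (adjusted p = 0.0172). *Atg9a*, the membrane-spanning scramblase of the seed vesicles, was at 12.1 and 11.2 CPM against 10.8 and 12.3 CPM and overlapped between the genotypes.

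**Figure D2:**
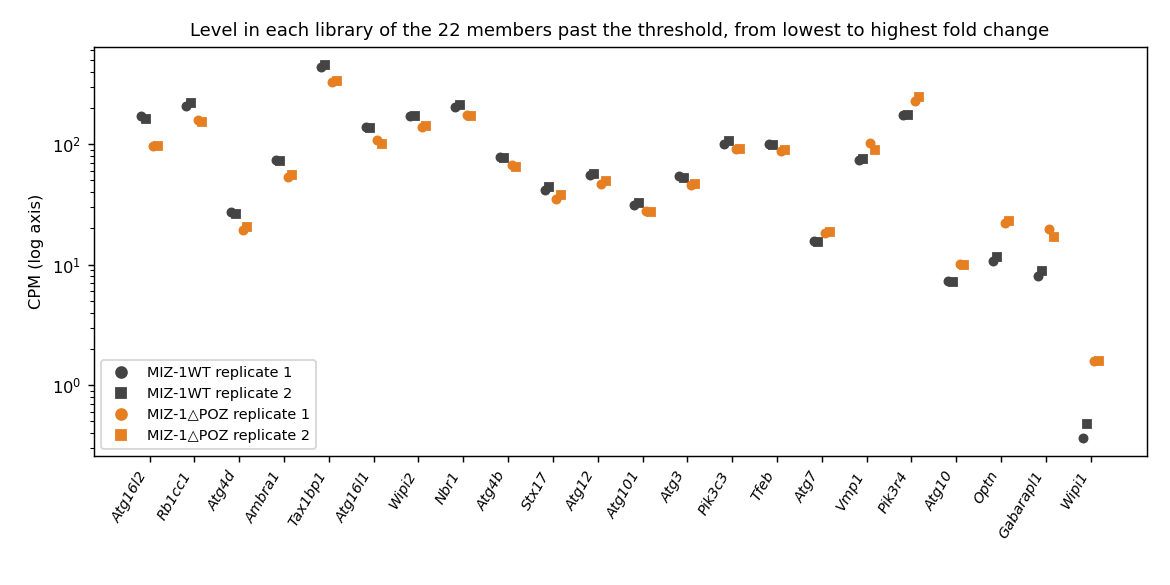
CPM on a log axis in each of the 4 libraries for the 22 members past the threshold, ordered from the lowest to the highest fold change, with circles for replicate 1 and squares for replicate 2. Libraries of a genotype lie close together next to the distance between genotypes for *Atg16l2*, *Optn* and *Gabarapl1*, and *Wipi1* is the member with the lowest level, at 0.367 to 1.59 CPM.

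The conjugation step held the member that fell furthest, *Atg16l2*, and the one of its members that rose most, *Gabarapl1*, and of its 15 genes 3 were higher, 6 were lower and 6 did not pass the threshold. Called genes made up 60% of the step, beside 40.0% of all genes tested. The median log2 fold change of the step was -0.13. No gene of the step overlapped between the genotypes, where 74.8% of all genes tested did not overlap either. The step joins ATG12 to ATG5 and then LC3 and GABARAP proteins to phosphatidylethanolamine. ATG7 is the shared activating enzyme, ATG10 and ATG3 are the conjugating enzymes of the ATG12 and the LC3 branch, and ATG16L1 places the ATG12 conjugate on the membrane.

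*Atg16l2* fell from 171 and 161 CPM to 96.4 and 97.1 CPM, a decrease in which the level fell by 41.7% (log2 fold change -0.78, SE 0.049, 95% confidence interval -0.90 to -0.66, adjusted p = 0.000784 by edgeR). *Atg16l1* fell from 140 and 137 CPM to 108 and 101 CPM (log2 fold change -0.41, SE 0.052, adjusted p = 0.00351 by edgeR). Both paralogues were lower in both MIZ-1△POZ libraries, and both calls were kept without any 1 library (adjusted p up to 0.0131 and 0.0423). Scaled by exon length the sum of the pair went from 34.6 and 33.3 RPKM to 22.6 and 21.9 RPKM, and the share of *Atg16l2* in it from 58.2% and 57.3% to 50.4% and 52.3%.

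The enzymes of conjugation were split between the directions. *Atg7* was higher, at 15.6 and 15.3 CPM against 18.4 and 18.5 CPM (log2 fold change 0.25, SE 0.074, adjusted p = 0.04 by edgeR). *Atg10* was higher as well, at 7.29 and 7.23 CPM against 10.1 and 10 CPM (log2 fold change 0.47, SE 0.10, adjusted p = 0.0156 by edgeR). *Atg3* was lower, at 54.5 and 52.4 CPM against 46 and 46.5 CPM (log2 fold change -0.21, SE 0.054, adjusted p = 0.028 by edgeR). In none of these 3 genes did the genotypes overlap, where 74.8% of all genes tested did not overlap either. The calls of *Atg7* and *Atg3* were lost without any 1 of the 4 libraries, and that of *Atg10* without MIZ-1WT replicate 1 or 2. In these fits the log2 fold change ranged from 0.24 to 0.27 for *Atg7* and from -0.24 to -0.18 for *Atg3*. That of *Atg10* ranged from 0.47 to 0.49 in the fits without 1 library.

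*Atg12*, the ubiquitin-like protein of the first branch, fell from 55.5 and 56 CPM to 46.7 and 49.6 CPM (log2 fold change -0.21, SE 0.057, adjusted p = 0.0312 by edgeR). Its call was lost without MIZ-1WT replicate 1 or 2 or MIZ-1△POZ replicate 1 (adjusted p up to 0.144). *Atg5*, its conjugation partner, was at 67.5 and 68.2 CPM against 61.7 and 61.2 CPM and had a log2 fold change of -0.14 that missed the threshold (SE 0.049, adjusted p = 0.0621 by edgeR).

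ATG4 proteases trim LC3 and GABARAP proteins before conjugation and free them from the membrane afterwards. *Atg4d* fell from 27.1 and 26.5 CPM to 19.3 and 20.5 CPM (log2 fold change -0.43, SE 0.07, adjusted p = 0.00708 by edgeR). *Atg4b*, with the highest length-scaled level of the 3 protease genes among the members, fell from 77.8 and 77.2 CPM to 67 and 65.2 CPM (log2 fold change -0.23, SE 0.049, adjusted p = 0.0157 by edgeR). *Atg4c* had a log2 fold change of 0.17 (SE 0.11) and did not pass the threshold. Without MIZ-1WT replicate 1 the call of *Atg4d* was lost (adjusted p = 0.0616), and without MIZ-1WT replicate 1 or 2 that of *Atg4b* was lost (adjusted p up to 0.111).

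Of the 5 genes of the LC3 and GABARAP family, *Gabarapl1* alone passed the threshold. Its counts were 349 and 374 in MIZ-1WT and 947 and 746 in MIZ-1△POZ, which is 8.0 and 8.9 CPM against 19.9 and 17 CPM (log2 fold change 1.13, SE 0.12, 95% confidence interval 0.84 to 1.41, adjusted p = 0.00202 by edgeR). The genotypes did not overlap, and the call was kept without any 1 library (adjusted p up to 0.0239). As for *Vmp1*, MIZ-1△POZ replicate 1 was above replicate 2, here by 0.23 on the log2 scale, and the part of macrophage RNA was not tested. *Gabarap*, which had the highest length-scaled level of all 39 members at 100 RPKM, was at 189 and 192 CPM against 179 and 179 CPM (log2 fold change -0.09, SE 0.042, adjusted p = 0.14 by edgeR). *Gabarapl2* had a log2 fold change of -0.06 (SE 0.055), *Map1lc3b* of -0.13 (SE 0.066) and *Map1lc3a* of 0.41 (SE 0.15, adjusted p = 0.0751 by edgeR). *Map1lc3b*, which encodes LC3B, passed the threshold without MIZ-1△POZ replicate 2 (adjusted p = 0.0239), with lower values in MIZ-1△POZ.

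The summed length-scaled level of the LC3 and GABARAP family was nearly the same in all libraries, at 141 and 144 RPKM in MIZ-1WT and 140 RPKM in each MIZ-1△POZ library. Within it the share of *Gabarapl1* went from 2.83% and 3.08% to 7.06% and 6.03%, and that of *Gabarap* from 72.7% and 72.5% to 69.2% in each MIZ-1△POZ library. These shares were not tested. The genome holds processed pseudogenes of at least 95% identity over at least 200 bases for *Map1lc3b* (4 copies), *Gabarapl2* (3 copies) and *Rb1cc1* (1 copy), so that reads of these genes may have been split with the copies or discarded, and their values are uncertain.

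**Figure D3:**
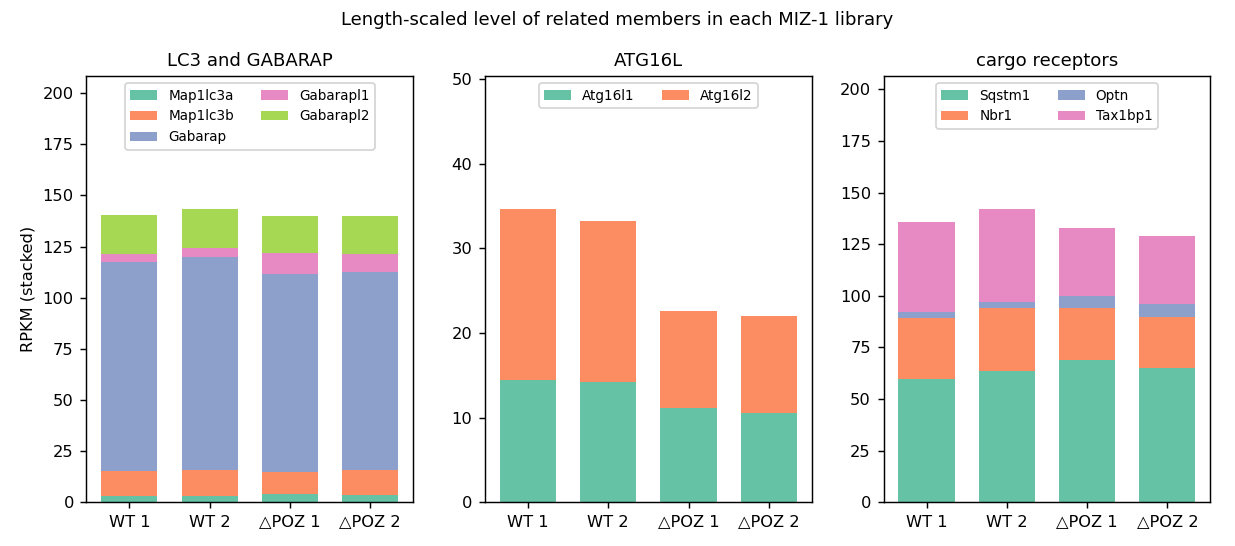
Stacked RPKM in each of the 4 libraries for the LC3 and GABARAP family, the ATG16L pair and the cargo receptors. The LC3 and GABARAP sum stays between 140 and 144 RPKM while the ATG16L sum goes from 34.6 and 33.3 RPKM in MIZ-1WT to 22.6 and 21.9 RPKM in MIZ-1△POZ.

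Of the 4 cargo receptors 1 was higher, 2 were lower and 1 did not pass the threshold. The called share was 75%, beside 40.0% of all genes tested, and the median log2 fold change of the receptors was -0.07. These proteins bind ubiquitinated cargo and LC3 or GABARAP at once. *Optn*, the receptor optineurin, rose from 472 and 486 counts to 1063 and 1007 counts, or 10.8 and 11.6 CPM against 22.3 and 22.9 CPM (log2 fold change 1.02, SE 0.08, 95% confidence interval 0.82 to 1.21, adjusted p = 0.00116 by edgeR). The MIZ-1△POZ replicates differed by 0.04 on the log2 scale for *Optn*, with replicate 1 the lower. The median of the macrophage markers differed there by 0.67, with replicate 1 the higher. In MIZ-1WT the log2 difference of replicate 1 from replicate 2 was -0.10 for *Optn* and -0.39 for the macrophage markers. For the plasma cell markers, of which 4 of 5 were higher, the median difference of replicate 1 from replicate 2 was 0.03 in MIZ-1△POZ and -0.23 in MIZ-1WT. The part of macrophage or plasma cell RNA was not tested. *Tax1bp1*, a receptor related to NDP52, fell from 437 and 450 CPM to 330 and 331 CPM (log2 fold change -0.42, SE 0.045, adjusted p = 0.00212 by edgeR). *Nbr1*, which acts with p62, fell from 202 and 210 CPM to 173 and 171 CPM (log2 fold change -0.26, SE 0.045, adjusted p = 0.00838 by edgeR).

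*Sqstm1*, which encodes p62 and had the highest length-scaled level of the receptors at 64.3 RPKM, was at 200 and 214 CPM in MIZ-1WT and 231 and 218 CPM in MIZ-1△POZ (log2 fold change 0.12, SE 0.055, adjusted p = 0.144 by edgeR). The receptors therefore differed in direction, and the make-up of their length-scaled sum shifted. The share of *Sqstm1* went from 44% and 44.7% to 51.7% and 50.4%, that of *Tax1bp1* from 32.2% and 31.6% to 24.8% and 25.6%, and that of *Optn* from 2.12% and 2.16% to 4.47% and 4.74%. The calls of *Optn* and *Tax1bp1* were kept without any 1 library (adjusted p up to 0.0177 and 0.024), and that of *Nbr1* was lost without MIZ-1WT replicate 1 or 2 (adjusted p up to 0.0765).

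Both fusion genes and the transcription factor of the list showed small differences. *Stx17*, the SNARE protein of the autophagosome, fell from 41.7 and 43.9 CPM to 35.2 and 37.9 CPM (log2 fold change -0.23, SE 0.067, adjusted p = 0.0413 by edgeR). *Epg5*, a tether between autophagosome and lysosome with the higher length-scaled level of the pair at 10 RPKM, was at 99.2 and 103 CPM against 96.2 and 103 CPM (log2 fold change -0.02, SE 0.055, adjusted p = 0.77 by edgeR). *Tfeb*, the transcription factor of lysosome and autophagy genes, fell from 101 and 98 CPM to 88 and 89.3 CPM (log2 fold change -0.17, SE 0.047, adjusted p = 0.0358 by edgeR), at 16.6 RPKM over all libraries. *Stx17* and *Tfeb* were lower in both MIZ-1△POZ libraries, whereas *Epg5* overlapped between the genotypes. The calls of *Stx17* and *Tfeb* were lost without MIZ-1WT replicate 1 or 2 or MIZ-1△POZ replicate 1 (adjusted p up to 0.195 and 0.227).

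Exons of 13 members overlap a gene on the opposite strand, and the strand setting of the counting is not given in the sources used here, so their values carry that uncertainty. Of these 13 members, 6 passed the threshold, beside 40.0% of all genes tested. *Becn1* did not, and shares 3104 bases, or 43.9% of its exon length, with *Cntd1*, which had 33 to 51 counts per library. *Atg4d* shares 1405 bases with *Kri1*, which had 4202 and 4298 counts in MIZ-1WT and 3887 and 3513 in MIZ-1△POZ. *Gabarapl1* shares 570 bases with 1700101I11Rik, which had between 0 and 5 counts. *Rb1cc1* shares 558 bases with 4732440D04Rik, *Tax1bp1* 160 bases with Gm43966, *Optn* 73 bases with 4930551O13Rik, and *Atg16l2* 25 bases with *Fchsd2*. The counts of *Fchsd2* were 16928 and 16227 in MIZ-1WT and 11814 and 12261 in MIZ-1△POZ.

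Beyond the 39 members, 59 other genes of the pathway were listed, of which 58 were tested and *Prkaa2* was not. Of the tested genes 9 were higher, 19 were lower and 30 did not pass the threshold, so that 48.3% were called beside 40.0% of all genes, and the median log2 fold change was -0.11. Fewer of these genes were called without MIZ-1WT replicate 1 or 2 or MIZ-1△POZ replicate 1, and fewer of all genes tested were called in those fits as well. Among 11 other core and membrane factors 2 were higher and 4 lower, so that 54.5% were called beside 40.0% of all genes. *Bcl2*, whose product binds beclin 1, rose from 163 and 164 CPM to 202 and 206 CPM (log2 fold change 0.32, adjusted p = 0.0038 by edgeR). *Wdr45*, a further WIPI protein, fell by 0.46 on the log2 scale (adjusted p = 0.00723 by edgeR), and *Tecpr1*, a tether that binds the ATG12 and ATG5 conjugate, fell by 0.35 (adjusted p = 0.0105 by edgeR). The call of *Tecpr1* was lost without MIZ-1WT replicate 1 (adjusted p = 0.0802) and that of *Wdr45* without MIZ-1WT replicate 2 (adjusted p = 0.0575).

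Of 11 receptors of mitochondria and other organelles 2 were higher and 5 lower, so that 63.6% were called beside 40.0% of all genes. *Retreg1*, a receptor for the endoplasmic reticulum, fell from 157 and 153 CPM to 111 and 114 CPM (log2 fold change -0.46, adjusted p = 0.00183 by edgeR). *Bnip3l*, the mitochondrial receptor NIX, fell from 108 and 114 CPM to 85.9 and 86.2 CPM (log2 fold change -0.37, adjusted p = 0.00378 by edgeR).

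Among 14 genes of the fusion machinery 2 were higher and 4 lower, so that 42.9% were called beside 40.0% of all genes. *Snap29*, the SNARE partner of syntaxin 17, fell from 139 and 146 CPM to 120 and 118 CPM (log2 fold change -0.26, adjusted p = 0.0101 by edgeR). *Plekhm1*, an adaptor between LC3 and the lysosome, fell by 0.49 on the log2 scale (adjusted p = 0.0132 by edgeR). *Lamp1*, a major protein of the lysosomal membrane, rose from 213 and 219 CPM to 327 and 273 CPM (log2 fold change 0.48, adjusted p = 0.0105 by edgeR), with MIZ-1△POZ replicate 1 above replicate 2 by 0.26 on the log2 scale. This is the library with the higher macrophage marker sum, and the part of macrophage RNA was not tested. All 3 calls were lost without MIZ-1WT replicate 1 or without MIZ-1WT replicate 2, with adjusted p of 0.0582 and 0.0898 for *Snap29*, 0.0843 and 0.0521 for *Plekhm1* and 0.0753 and 0.0565 for *Lamp1*.

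Upstream of the ULK complex, 16 of 17 genes of the mTORC1 and AMPK kinases were tested, of which 1 was higher and 5 were lower. The called share was 37.5%, beside 40.0% of all genes. *Prkab2*, a subunit of AMPK, fell by 0.51 on the log2 scale (adjusted p = 0.00312 by edgeR), *Tsc1*, an inhibitor of mTORC1, fell by 0.32 (adjusted p = 0.00536 by edgeR), and *Mtor*, the kinase itself, fell by 0.24 (adjusted p = 0.0186 by edgeR). The call of *Mtor* was lost without MIZ-1WT replicate 1 (adjusted p = 0.144) or replicate 2 (adjusted p = 0.0641), and that of *Tsc1* without MIZ-1WT replicate 2 (adjusted p = 0.0508).

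Of 6 other transcription factors of the pathway 2 were higher and 1 was lower, so that 50% were called beside 40.0% of all genes. *Mitf* and *Tfec*, relatives of *Tfeb* in the same family, rose from low levels, *Mitf* from 2.5 and 2.55 CPM to 7.2 and 4.78 CPM (log2 fold change 1.25, adjusted p = 0.0101 by edgeR) and *Tfec* from 1.54 and 3.38 CPM to 9.07 and 5.72 CPM (log2 fold change 1.59, adjusted p = 0.0256 by edgeR). Their MIZ-1△POZ replicates differed by 0.59 and 0.66 on the log2 scale, with replicate 1 the higher, beside 0.67 for the macrophage markers, and the part of macrophage RNA was not tested. *Foxo1*, an activator of autophagy genes that also acts in B cell development, fell from 54.9 and 49.3 CPM to 30.7 and 40.5 CPM (log2 fold change -0.55, adjusted p = 0.0253 by edgeR), and its log2 fold change was -0.36 without MIZ-1△POZ replicate 1. Without MIZ-1WT replicate 1 the calls of *Mitf*, *Foxo1* and *Tfec* were lost (adjusted p = 0.0692, 0.131 and 0.0884), and without MIZ-1WT replicate 2 those of *Mitf* and *Foxo1* (adjusted p = 0.0591 and 0.067). The log2 fold change of *Tfec* was 1.13 without MIZ-1WT replicate 1 and 2.27 without MIZ-1WT replicate 2.

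**Figure D4:**
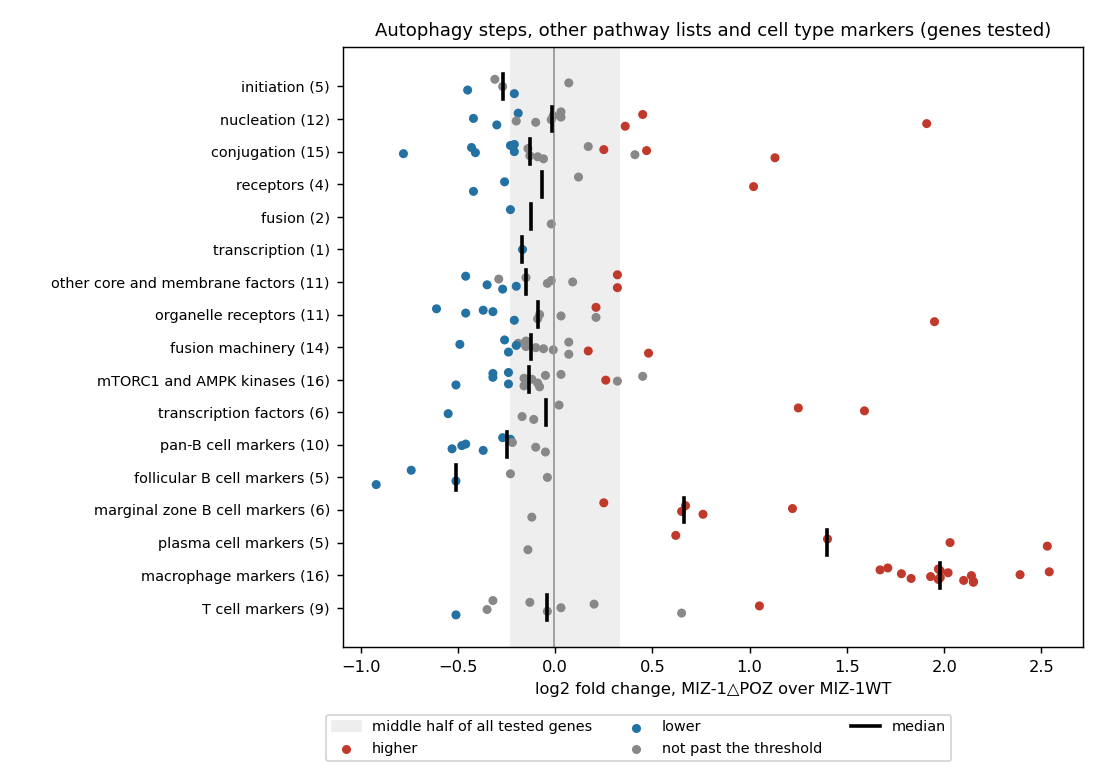
Log2 fold change of each tested gene in the autophagy steps, the other pathway lists and the marker lists of B cells, plasma cells, macrophages and T cells, with black bars for the medians and a grey band for the central range of all tested genes from the first to the third quartile. The autophagy steps lie between -0.27 and -0.01 in their medians, where the pan-B cell markers are at -0.25 and the macrophage markers at 1.98.

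The calls differed in how far they held under other processing. Of the 22 called members, 15 passed the threshold in all 7 other settings of normalization, filter, block or test in which they could be fitted, and 9 of the 22 also kept their call without each library in turn. These 9 were *Rb1cc1*, *Pik3r4*, *Ambra1*, *Wipi1*, *Atg16l1*, *Atg16l2*, *Gabarapl1*, *Optn* and *Tax1bp1*, where *Wipi1* was removed by the filter on a mean of 100 counts and so could be fitted in the remaining settings only. All 22 kept their sign in every setting in which they were fitted. With all 4 libraries fitted, *Atg101* passed the threshold in 2 of the 7 other settings, and *Stx17* and *Tfeb* in 3 each. *Atg3* and *Atg7* passed it in 4 of these settings each, and *Pik3c3* and *Atg12* in 5 each. Without MIZ-1WT replicate 1 or 2 fewer members were called, and fewer of all genes tested were called in those fits as well.

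**Figure D5:**
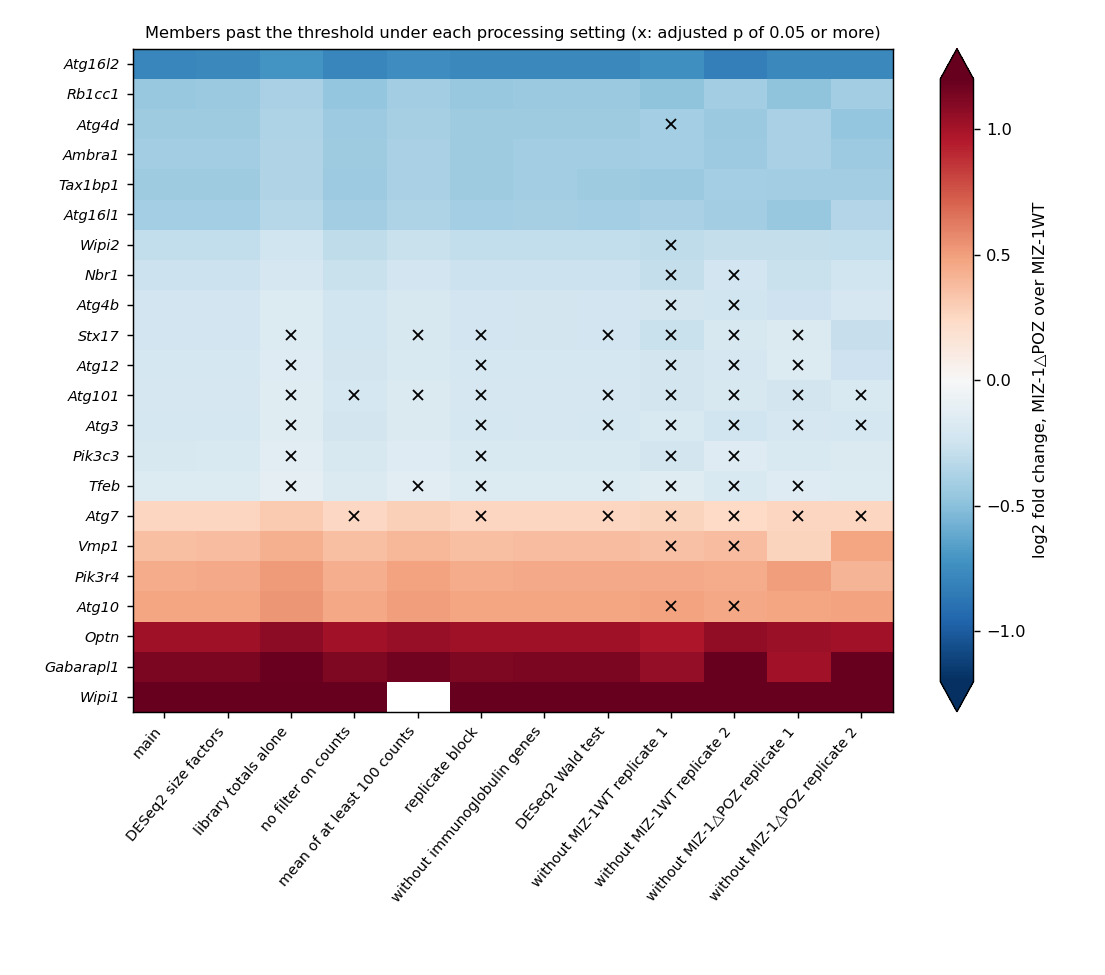
Log2 fold change of the 22 called members under the main and 11 other settings, coloured from blue for lower to red for higher in MIZ-1△POZ, with a cross where the adjusted p was 0.05 or more and a blank where the gene was not fitted. The fits without MIZ-1WT replicate 1 or 2 hold 13 and 11 crosses, and the 9 members with no cross include *Atg16l2*, *Optn* and *Gabarapl1*.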

How the data were processed

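RNA-seq counts of B220+ splenocytes from 2 MIZ-1WT and 2 MIZ-1△POZ libraries were analysed. Paired-end reads from a stranded rRNA-depletion kit were trimmed with Trimmomatic, mapped to mm10 with TopHat2 (version 2.1.0 per the submitters' processing notes) and counted on Ensembl genes with HTSeq. The authors deposited raw counts per gene, neither normalized nor pooled. HTSeq's summary lines were excluded; their share outside genes was 27.2% and 25.5% in the MIZ-1WT libraries against 21.6% and 21.1% in the MIZ-1△POZ libraries, and 42.8% to 44.1% did not align uniquely. Symbols and exon lengths came from GENCODE M21 of GRCm38, which named 40254 genes.

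A gene was tested if 2 or more libraries held 10 or more of its counts, using edgeR 4.0.16 in R 4.3.3 (TMM, with factors from 0.977 to 1.03, quasi-likelihood test, Benjamini-Hochberg adjustment over all 14554 genes, threshold 0.05). CPM are TMM-normalised, and RPKM are CPM per kilobase of exon, with the length taken over all annotated exons of a gene. Rankings of genes by RPKM and shares within a family therefore depend on the annotation. Every member had at least 16 counts in each library and 38 had at least 100. All 39 members were described, with values in each library for those past the threshold and the highest RPKM of each step; from each other list up to 3 called genes with the smallest p were named, of which 1 is not reported here. The members and lists were chosen with earlier results of these data known. Alternatives were DESeq2 size factors, library totals alone, no filter, a mean of at least 100 counts, a replicate block, removal of 257 immunoglobulin genes, the Wald test of DESeq2 1.42.0 and leaving out each library. The procedure was tested on simulated data. Replicates of a genotype correlated at 0.994 and 0.993 on log2 CPM and differed by more than sampling noise. Promoter windows are RefSeq's for GRCm38.p6.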

Additional observations from a re-analysis of the deposited data

How the results depend on the processing

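With 2 libraries per genotype the calls rested on few samples, and a fit without 1 library assumes that the lone library of its genotype varies like the other pair. All 22 calls kept their direction wherever they were fitted. The number of called members ranged from 9 to 22 across the fits without 1 library, with 4 to 6 higher and 5 to 16 lower, while over all genes the calls ranged from 2204 to 5739, with 1367 to 3017 higher and 837 to 2722 lower. The median log2 fold change ranged in these fits from -0.153 to -0.0757 over all members, from -0.37 to -0.20 for initiation, from -0.1185 to 0.0115 for nucleation, from -0.1417 to -0.0892 for conjugation, from -0.11 to -0.03 for the receptors and from -0.17 to -0.07 for fusion.

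The correlation of same-numbered deviations was -0.0688, and with 2 pairs only it cannot show whether the replicate numbers pair the samples. With a replicate block 15 members were called, of which 9 were lower. With library totals alone, which moved the median of all genes to 0.054, 9 members were lower, and the medians were -0.07 over all members, -0.21 for initiation, 0.0476 for nucleation, -0.07 for conjugation and -0.0110 for the receptors. With a mean of at least 100 counts the medians were -0.10 over all members, -0.24 for initiation, 0.0162 for nucleation and -0.10 for conjugation, and without a filter the median for nucleation was -0.0206. The cause of these shifts was not tested.

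Signs changed only for members that were not called. With library totals alone the log2 fold change was 0.0517 for *Atg14*, 0.0435 for *Atg9a*, 0.0047 for *Gabarapl2* and 0.0374 for *Epg5*, and with a mean of at least 100 counts 0.0245 for *Atg14*, 0.0162 for *Atg9a* and 0.01 for *Epg5*. Without 1 library it ranged from -0.0162 to 0.08 for *Becn1*, from -0.153 to 0.1355 for *Atg14*, from -0.1013 to 0.0756 for *Atg9a* and from -0.0630 to 0.0282 for *Epg5*. The DESeq2 Wald test kept 17 of the 22 calls, and DESeq2 size factors and the removal of immunoglobulin genes kept all 22. Low depth limits *Wipi1*, with 16 and 20 counts in MIZ-1WT.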
